A study of Homo sapiens with 3 samples.

Results

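The urothelial lineage transcription factors described here are 10 genes, TP63, GATA3, FOXA1, PPARG, ELF3, KLF4, KLF5, TFAP2A, TFAP2C and SOX2, taken from the 50867 genes of the deposited table by their gene symbol. All 10 were found, each once, and 9 of them reached a mean level of 1 CPM (counts-per-million of the library) and entered the tests, with SOX2 the exception. Expression was measured by RNA sequencing of polyA+ RNA from UM-UC-3 cells, a line established from a human bladder cancer. Cells infected with lentivirus carrying short hairpin RNA 1 or short hairpin RNA 2 against the long non-coding RNA BLACAT2 form the group shBLACAT2 (n = 2, 1 library per hairpin, called shRNA 1 and shRNA 2), and cells carrying a scramble hairpin form the group shControl (n = 1). All of them were selected with puromycin as stable lines, and the labels do not say whether the lines are clones or pools.

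The urothelium is the layered lining of the bladder. Its basal cells depend on TP63, a factor that maintains stratified epithelia, while its intermediate and surface (luminal) cells are specified by GATA3, FOXA1 and the nuclear receptor PPARG, with the ETS factor ELF3 acting in epithelial differentiation. Bladder tumours are commonly sorted into luminal and basal classes by the same factors and their target genes.

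The libraries held 17670199 (shRNA 1), 16216947 (shRNA 2) and 16424422 (shControl) counts. BLACAT2, listed as LINC00958, had 816 counts with shRNA 1, 1062 with shRNA 2 and 938 in shControl, so that the scaled ratios to the control were 0.735 (95% counting interval 0.668 to 0.808) and 0.996 (0.911 to 1.09). The directions below are therefore those of libraries labelled with a hairpin. The epithelial nature of the cells was visible in 9 of 11 epithelial markers with a mean of at least 1 CPM, and each sum given here is over the whole list. The epithelial sums were 4284 CPM (shRNA 1), 2543 CPM (shRNA 2) and 3328 CPM (shControl), while the uroplakin genes UPK1A and UPK3A had no more than 1 count in any library. Of 9 leukocyte markers 2 reached that level, with sums of 1.45, 18.6 and 2.83 CPM in the same order, and of 8 endothelial markers 3 did, with 4.34, 9.04 and 6.72 CPM. Of 11 fibroblast and smooth muscle markers 5 reached it, and the sum over all 11 was 22.9 CPM with shRNA 1, 20.6 CPM with shRNA 2 and 369.8 CPM in shControl. COL1A1 gave 346.0 CPM of the control's sum, and 4 other members of that list were lower too, with 8, 21 and 102 counts (shRNA 1, shRNA 2, shControl) for FAP, 15, 31 and 152 for PDGFRB, 0, 1 and 16 for COL1A2 and 0, 1 and 20 for COL3A1. Not all of the list was lower by 2-fold with both hairpins. ACTA2 had 38, 107 and 38 counts (log2 folds −0.23 and 1.27), and MYH11 had 20, 28 and 26 (−0.57 and −0.07). DCN and LUM had at most 2 counts in any library. The lower sum of that list in the hairpin libraries stands beside the differences given below, and its part in them was not tested.

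The promoter sequences of the 3 factors that differed from the control by 2-fold or more under each hairpin are shown first, since the counts by size turn on them. Which start was used in a library was not measured. RefSeq windows on GRCh38.p14 were found for 9 of the 10 factors, 21 windows in all, and each was read over the 250 bases before the annotated start, on the strand of the gene. Capitals mark a match, on either strand, to 1 of 8 searched motifs: CACCTG (the E-box of ZEB and SNAI repressors), TGACTCA (AP-1), AGATAA (for factors of the GATA family), TGTTTAC (FOXA), GCCNNNGGC (AP-2), GGGCGG (GC box of SP and KLF factors), GGAATG (TEAD) and AGGAAGT (ETS). No match of 1 motif shared a base with another in the 3 windows below.
ELF3, chr1:202010337-202010586, plus strand: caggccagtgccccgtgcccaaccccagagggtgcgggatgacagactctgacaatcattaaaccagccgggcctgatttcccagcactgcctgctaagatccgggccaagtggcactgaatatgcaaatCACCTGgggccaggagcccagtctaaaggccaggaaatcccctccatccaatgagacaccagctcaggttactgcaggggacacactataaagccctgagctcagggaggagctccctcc
KLF5, chr13:73058755-73059004, plus strand: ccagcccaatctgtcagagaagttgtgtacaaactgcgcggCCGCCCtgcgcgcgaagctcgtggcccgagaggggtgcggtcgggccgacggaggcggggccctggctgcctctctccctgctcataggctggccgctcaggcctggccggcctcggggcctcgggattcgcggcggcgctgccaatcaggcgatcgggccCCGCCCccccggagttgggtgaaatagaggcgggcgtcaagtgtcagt
TP63, chr3:189631139-189631388, plus strand: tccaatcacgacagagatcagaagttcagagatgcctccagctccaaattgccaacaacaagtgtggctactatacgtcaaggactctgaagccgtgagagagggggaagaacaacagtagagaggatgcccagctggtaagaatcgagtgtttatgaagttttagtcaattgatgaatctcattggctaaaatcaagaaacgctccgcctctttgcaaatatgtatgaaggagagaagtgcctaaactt

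The ELF3 window held 1 match, a CACCTG, a motif found in 17.5% of 34943 RefSeq windows of this length. The KLF5 window held 2 GC boxes, a motif found in 42.5% of windows, and the second KLF5 window, at the upstream start, held none of the 8 motifs at a GC content of 40.8%. The TP63 window, at the start of the long transcripts, held none of the 8 motifs either, and its GC content was 44.0% against 58.4% for ELF3, 70.8% for KLF5 and a median of 58.0% over all windows. Over the 21 windows of the 9 factors, CACCTG stood in 5 (ELF3, FOXA1 and PPARG), the GC box in 8 (FOXA1, GATA3, KLF4, KLF5 and SOX2), the AP-2 motif in 5 (GATA3, KLF4 and SOX2, against 19.7% of all windows), TGACTCA in 1 (GATA3, 4.22%), AGATAA in 1 (PPARG, 9.19%), GGAATG in 1 (GATA3, 11.9%), AGGAAGT in 1 (KLF4, 6.99%) and TGTTTAC in none (2.98%). A match is a description of the letters and not of a bound site.

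The level of each factor per gene length was read from the authors' FPKM, which are fragments scaled to gene length and library depth. KLF5 stood highest in every library, at 19.5 FPKM with shRNA 1, 20.1 with shRNA 2 and 8.33 in shControl. In the shBLACAT2 libraries it was followed by ELF3 (14.3 ± 1.08 FPKM, SD, n = 2), GATA3 (13.4 ± 0.636), TFAP2A (11.9 ± 0.156), PPARG (8.94 ± 1.45), TFAP2C (7.20 ± 0.984), KLF4 (5.49 ± 3.37), FOXA1 (0.797 ± 0.195) and TP63 (0.0504 ± 0.0198). In the order of shBLACAT2 levels, ELF3 and GATA3 overlapped in range, as did TFAP2C and KLF4, and the other neighbours did not overlap. In shControl the order was KLF5, TFAP2A (6.63 FPKM), GATA3 (5.78), TFAP2C (5.13), PPARG (5.10), ELF3 (1.97), KLF4 (1.88), FOXA1 (0.776) and TP63 (0.416), and the counting intervals overlapped between GATA3 and TFAP2C, TFAP2C and PPARG, and ELF3 and KLF4. By rank ELF3 was thus the second in the shBLACAT2 mean and the sixth in shControl, TFAP2A the fourth and the second, and TFAP2C the sixth and the fourth, while the other 7 had the same rank in both. SOX2, a factor of stem and squamous cells, had 1, 0 and 0 counts (shRNA 1, shRNA 2, shControl), below the floor of 3 counts, and no fold is given for it.

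**Figure D1:**
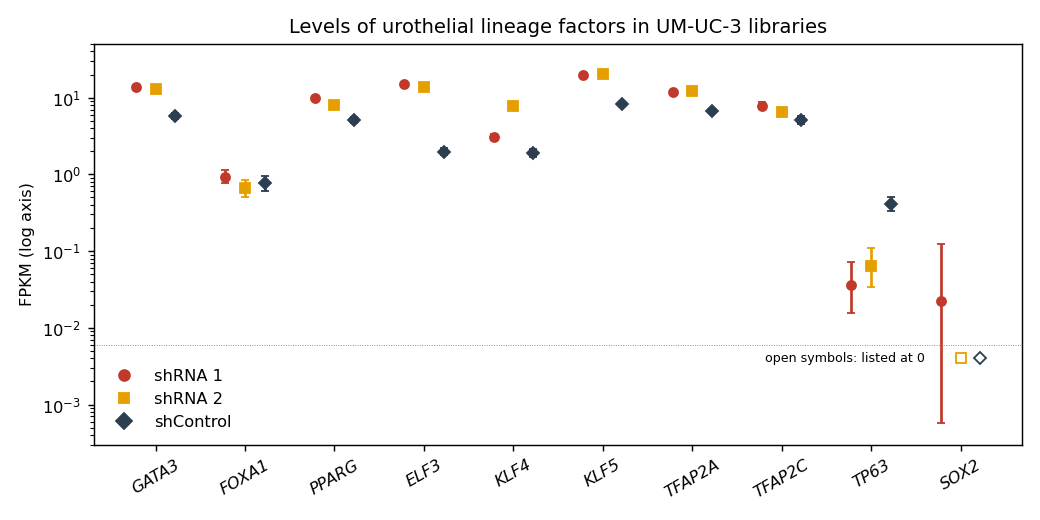
FPKM of the 10 lineage factors (log axis) in the shRNA 1, shRNA 2 and shControl libraries, 1 point per library with its 95% Poisson counting interval; open symbols mark values listed at 0. ELF3 stands at 15.1 and 13.6 FPKM with the hairpins against 1.97 in shControl, and TP63 at 0.0364 and 0.0644 against 0.416.

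The luminal factors were compared first. ELF3, an ETS factor restricted to epithelia (ENSG00000163435; hg38, chromosome 1, 202007945 to 202017188), had 3083 counts with shRNA 1, 2542 with shRNA 2 and 373 in shControl. Both hairpin libraries lay above the control, at scaled ratios of 6.98 (95% counting interval 6.27 to 7.80) and 5.99 (5.37 to 6.70). Its log2 fold, computed here as for every gene after a prior count of 2 that pulls low genes towards 0, averaged 2.69 ± 0.16 (SD, n = 2), the hairpins lay 0.22 apart, and by the smaller of both folds it ranked 87th of the 800 genes at least 2-fold higher. GATA3, the zinc-finger factor of luminal urothelium (ENSG00000107485; chromosome 10, 8053604 to 8075198), had 1389 counts with shRNA 1, 1192 with shRNA 2 and 538 in shControl. Its ratios of 2.18 (1.97 to 2.41) and 1.95 (1.76 to 2.16) put it just inside a 2-fold size with shRNA 1 and just outside it with shRNA 2. With library totals as the scaling both were past 2-fold (log2 folds 1.26 and 1.16).

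PPARG, the fatty-acid receptor that drives urothelial differentiation with its partner RXRA (ENSG00000132170; chromosome 3, 12287368 to 12434356), had 1227 counts with shRNA 1, 894 with shRNA 2 and 583 in shControl. Both hairpin libraries were above the control by less than 2-fold, with ratios of 1.78 (1.61 to 1.97) and 1.35 (1.21 to 1.5). FOXA1, the pioneer factor that works with GATA3 (ENSG00000129514; chromosome 14, 37589984 to 37596059), had 105 counts with shRNA 1, 68 with shRNA 2 and 81 in shControl. The control lay between the hairpin libraries, and both intervals of the ratio included 1 (1.1, 0.812 to 1.48, and 0.738, 0.527 to 1.03). The 4 luminal factors thus ranged from a mean log2 fold of 2.69 for ELF3 to −0.15 ± 0.39 for FOXA1.

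TP63, the basal factor (ENSG00000073282; chromosome 3, 189631416 to 189897279), had 8 counts with shRNA 1, 13 with shRNA 2 and 85 in shControl. It was 12.6-fold lower with shRNA 1 (95% counting interval 6.10 to 30.1) and 7.43-fold lower with shRNA 2 (4.12 to 14.5). With the prior count the log2 folds were −3.34 and −2.71, and by the smaller of both it ranked 124th of the 681 genes at least 2-fold lower. The gene was low already in shControl, at 5.6 CPM, and its level with the hairpins, 0.445 and 0.753 CPM, rests on few counts, so the intervals are wide and the hairpin libraries do not differ from each other within counting error (ratio 1.69, 0.650 to 4.71). GENCODE release 29 lists 5 coding transcripts that start between 189631427 and 189631516, which encode the long (TA) forms, and 7 that start between 189789660 and 189789801, which encode the short (delta N) forms. The short forms are the ones best known from basal epithelium. Counts per gene do not tell the forms apart.

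**Figure D2:**
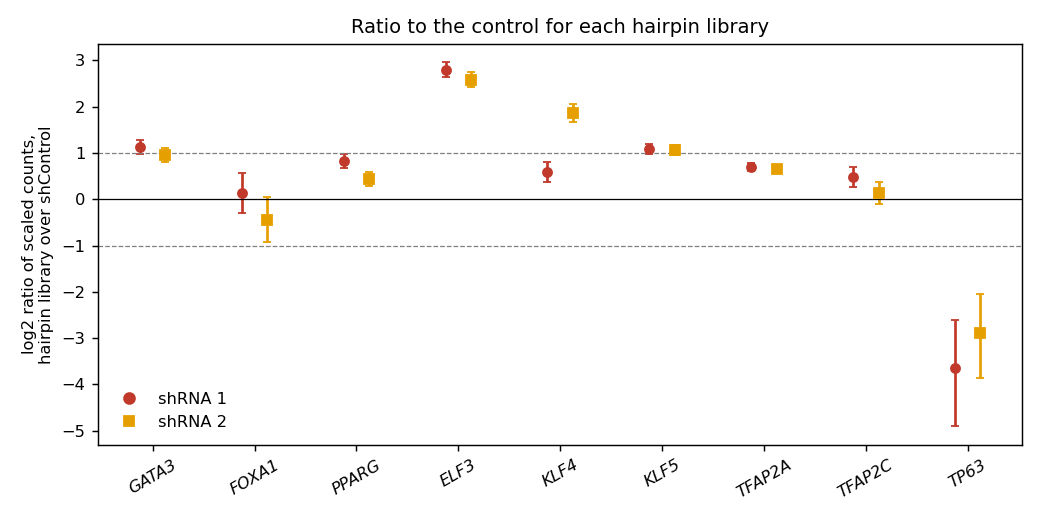
log2 ratio of scaled counts, hairpin library over shControl, for the 9 tested lineage factors, with 95% counting intervals; dashed lines mark 2-fold. ELF3 (6.98 and 5.99) and KLF5 (2.13 and 2.10) lie above the upper line with both hairpins, and TP63 (0.0795 and 0.135) below the lower one.

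A ratio of 2 genes inside a library does not depend on the scaling between libraries, so the luminal factors were also set beside TP63 in this way. ELF3 had 385 counts per TP63 count with shRNA 1, 196 with shRNA 2 and 4.39 in shControl, a change of 87.8-fold (95% counting interval 42.1 to 211) and 44.6-fold (24.4 to 87.8). GATA3 had 174 and 91.7 against 6.33 in shControl, 27.4-fold (13.2 to 65.9) and 14.5-fold (7.94 to 28.5) higher. PPARG was 22.4-fold (10.7 to 53.7) and 10.0-fold (5.49 to 19.8) higher relative to TP63, and FOXA1 13.8-fold (6.16 to 34.5) and 5.49-fold (2.73 to 11.6). Relative to TP63, all 4 luminal factors were thus past 2-fold higher in both hairpin libraries. The ratio carries the low TP63 counts, the same held for 96.6% of all other genes tested, and nothing particular to the luminal factors is read from it.

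The Kruppel-like factors KLF4 and KLF5 act in surface epithelia, KLF4 in terminal differentiation and KLF5 in proliferating and differentiating cells. KLF5 (ENSG00000102554; chromosome 13, 73054976 to 73077542) had 2505 counts with shRNA 1, 2376 with shRNA 2 and 996 in shControl. Its ratios were 2.13 (1.97 to 2.29) and 2.10 (1.95 to 2.26), the log2 folds differed by 0.02 between the hairpins, and the size is just past 2-fold, ranking 701st of 800. KLF4 (ENSG00000136826; chromosome 9, 107484852 to 107490482) had 490 counts with shRNA 1, 1141 with shRNA 2 and 276 in shControl. KLF4 was 1.5-fold higher with shRNA 1 (1.29 to 1.75) and 3.64-fold higher with shRNA 2 (3.19 to 4.16). The shRNA 2 library exceeded the shRNA 1 library by a ratio of 2.42 (2.18 to 2.70), the widest gap between hairpins of the 9 tested factors (1.27 on the log2 scale), and with 1 library per hairpin that gap has no replicate check.

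The AP-2 factors TFAP2A and TFAP2C bind the same GC-rich palindrome and are expressed in ectodermal and epithelial cells. TFAP2A (ENSG00000137203; chromosome 6, 10393186 to 10419659) had 3349 counts with shRNA 1, 3131 with shRNA 2 and 1748 in shControl, with ratios of 1.62 (1.53 to 1.72) and 1.58 (1.49 to 1.67). TFAP2C (ENSG00000087510; chromosome 20, 56629302 to 56639283) had 467, 353 and 282 counts in the same order, with ratios of 1.40 (1.20 to 1.63) and 1.1 (0.939 to 1.29). TFAP2A was above the control by about the same ratio with both hairpins, while the interval of TFAP2C with shRNA 2 included 1.

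Counted by size, 2 of the 9 tested factors (ELF3 and KLF5) reached 2-fold above the control in both hairpin libraries, where 5.29% of all 15132 tested genes were, and 1 was lower by that size (TP63), where 4.5% were. Of the other 6, GATA3 was higher by that size with shRNA 1 and not with shRNA 2, as were 2.64% of all genes, and KLF4 with shRNA 2 and not with shRNA 1, as were 7.68%. Medians of the log2 folds of the 9 were 0.69 with shRNA 1 and 0.66 with shRNA 2, against 0.01 and 0.04 over all genes tested. In edgeR's quasi-likelihood test of both hairpin libraries against the control, which has 1 residual degree of freedom, 0 of 9 passed a Benjamini-Hochberg adjusted p of 0.05. Of all genes 0.0397% did, counted in either direction. An unadjusted p below 0.05 in the same test was found for 4 of the 9 factors (ELF3, TP63, KLF5 and GATA3), and for 10.2% of all genes. The fitted edgeR change of ELF3 was 2.70 on the log2 scale (SE 0.38) with adjusted p = 0.0886, and that of TP63 was −3.21 (SE 0.67) with adjusted p = 0.176. KLF5 had an adjusted p of 0.339 and GATA3 of 0.344 in the same edgeR test. DESeq2 passed 1 of 9, ELF3 at adjusted p = 6.89e-07, where it passed 3.51% of all genes, and limma passed none. Over all fits run, the adjusted p of ELF3 ranged from 6.89e-07 to 0.747 and that of TP63 from 0.133 to 0.747. GATA3, KLF4 and KLF5 had the same upper end, so that value is not particular to ELF3 or TP63.

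**Figure D3:**
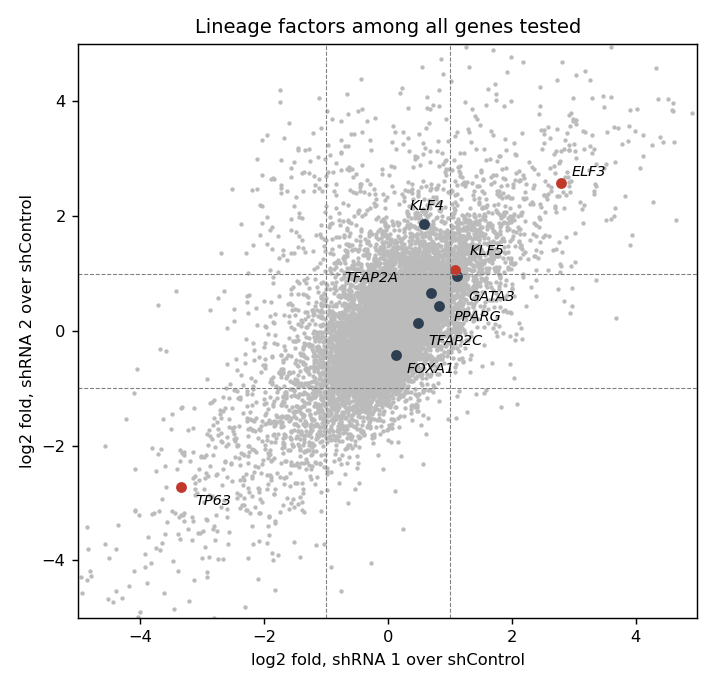
log2 fold over shControl with shRNA 1 (x) and shRNA 2 (y) for the 15132 tested genes (grey) and the 9 tested lineage factors; red marks those at least 2-fold away with both hairpins, dashed lines mark 2-fold, and 61 genes past 5 on either axis are not drawn. ELF3 (2.80 and 2.58) and TP63 (−3.34 and −2.71) lie at opposite ends of the diagonal, and KLF4 (0.58 and 1.86) lies off it.

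Genes annotated over the factors were counted separately, and whether the counting used strand is not given in the sources used here. TFAP2A-AS1, antisense to TFAP2A, had 44 (shRNA 1), 27 (shRNA 2) and 20 (shControl) counts. RP11-465N4.4, antisense to ELF3, had 17, 27 and 6, and RP11-510N19.5, on the strand of ELF3, had 12, 5 and 0. TTC6 overlaps FOXA1 by 213 bases on the other strand and had 6, 12 and 5 counts, SOX2-OT, which spans SOX2, had 0, 3 and 0, and 2 further features inside PPARG had none. These are far below the counts of TFAP2A and ELF3. GATA3-AS1 lies beside GATA3 and was picked with its values in view. It had 21, 21 and 5 counts (log2 folds 1.52 and 1.57).

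Relatives of the factors were read from lists with the 10 factors left out, and each count by size stands against the 5.29% of all tested genes that were higher and the 4.5% that were lower. In a list of a few genes 1 or 2 calls already make a share above these. This held for the 2 of 5 tested GATA genes and cofactors higher and the 22.2% of 9 tested SOX genes in each direction. Such shares were not tested against those of all genes, and nothing is read from them about the list. EHF, the ETS factor closest in role to ELF3 in epithelia, had 2409 counts with shRNA 1, 2648 with shRNA 2 and 553 in shControl (log2 folds 1.88 and 2.07), and was the 1 of 4 tested ELF and epithelial ETS genes past 2-fold with both hairpins. ELF1, ELF2 and ELF4, which are expressed broadly, had log2 folds between −0.48 and 0.28. SPDEF and ELF5 had at most 3 counts. Among 5 tested GATA genes and cofactors, GATA2 (699, 957 and 244 counts with shRNA 1, shRNA 2 and in shControl, log2 folds 1.27 and 1.78) and GATA5 (59, 44 and 10, 2.13 and 1.78) were past 2-fold higher and none lower, and the list medians of −0.67 and 1.03 have opposite signs with the hairpins. Of 11 tested KLF genes, 1 (9.09%, against 4.5% of all genes) was past 2-fold, KLF2, which was lower (35, 41 and 110 counts, −1.83 and −1.56), with list medians of −0.41 and 0.03. KLF10, picked with its values in view, had log2 folds of −0.44 and −1.76.

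RXRA, the obligate partner of PPARG on DNA, had 3592 counts with shRNA 1, 3360 with shRNA 2 and 1235 in shControl (log2 folds 1.30 and 1.26), and was 1 of 11 tested PPAR receptors and partners past 2-fold (9.09%, against 5.29% of all genes), with none lower and medians of −0.09 and 0.34. The 13 tested PPARG target genes had medians of 0.33 and 0.01. None was higher by 2-fold with both hairpins, and ANGPTL4, a secreted lipase inhibitor, was lower (74, 14 and 449 counts, −2.81 and −5.0). Among 9 tested SOX genes, SOX15 (1.38 and 1.30) and SOX7 (1.17 and 1.88) were higher, and SOX4 (425, 252 and 1886 counts, −2.39 and −3.08) and SOX17 (−1.48 and −1.52) lower by that size. SOX4, a factor of progenitor and mesenchymal states, had an edgeR adjusted p of 0.0886. FOXA3 (−0.02 and 0.19) was the 1 tested FOXA relative, and of the other AP-2 genes TFAP2B and TFAP2D had 0 counts and TFAP2E at most 17.

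Other factors of urothelial and surface epithelium went in both directions. Of 13 tested, 3 (23.1%) reached 2-fold above the control in both hairpin libraries and 1 (7.69%) below it. GRHL3, needed for surface epithelial barriers, had 898 counts with shRNA 1, 771 with shRNA 2 and 74 in shControl (log2 folds 3.33 and 3.16). GRHL1, of the same family, had 620, 545 and 191 counts (log2 folds 1.45 and 1.32), and EHF is the third. TBX3, a T-box factor of bladder and ureter development, had 418, 283 and 2821 counts and was lower (−2.99 and −3.49). The list medians were 0.36 and 0.68.

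The genes under these factors were described by lists of luminal and basal genes and of TP63 targets. Of 19 tested luminal urothelial genes, 7 (36.8%, against 5.29% of all genes) reached 2-fold above the control in both hairpin libraries and none below it, with medians of 0.72 and 0.80. They include PSCA, a surface antigen of urothelium (293, 138 and 10 counts with shRNA 1, shRNA 2 and in shControl, log2 folds 4.40 and 3.38), VGLL1, a cofactor of TEAD proteins (1019, 337 and 66, 3.67 and 2.14), and the claudin CLDN3 (83, 79 and 7, 3.03 and 3.02). The uroplakin UPK1B, picked with its values in view, had 2311, 923 and 306 counts (2.67 and 1.40). The other 12 luminal genes were neither, and the list did not move as a whole. Picked with their values in view, KRT7 (−0.22 and −0.78) and KRT18 (−0.25 and −0.52) lay below the control with both hairpins. KRT8 (0.16 and −0.51), KRT19 (1.11 and −0.30) and XBP1 (−0.15 and 1.13) differed in direction between the hairpins. Of 21 tested basal and squamous genes, 4 (19.0%, against 4.5% of all genes) were lower by that size with both hairpins. None was higher with both, and the medians were −0.63 and −0.02. The 4 lower genes were PKP1, a desmosome plaque protein (99, 176 and 1026 counts), IVL, a protein of the cornified envelope (549, 284 and 1236), and the keratins KRT6A (262, 170 and 860) and KRT6B (16, 7 and 30), near-identical genes between which reads can be split. Others of the list differed between the hairpins. Picked with their values in view, these include COL17A1 (−1.70 and 1.42), DSC3 (−0.16 and 1.98), KRT13 (2.04 and 0.61) and KRT5 (−0.002 and −1.90). The 26 tested TP63 targets were split, with 11.5% in each direction, 3 higher (TRIM29 at 2.02 and 2.51, FGFR2 at 1.65 and 1.83, DST at 1.79 and 1.30), 3 lower (among them PTHLH at −2.64 and −5.95 and FAT2 at −1.14 and −1.30) and 20 neither, and with medians of −0.49 and −0.21. DST and FAT2 were picked with their values in view. No gene of these lists passed edgeR's test over all genes. Since the lists were chosen with earlier results of these data known, their shares beside those of all genes are description only.

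**Figure D4:**
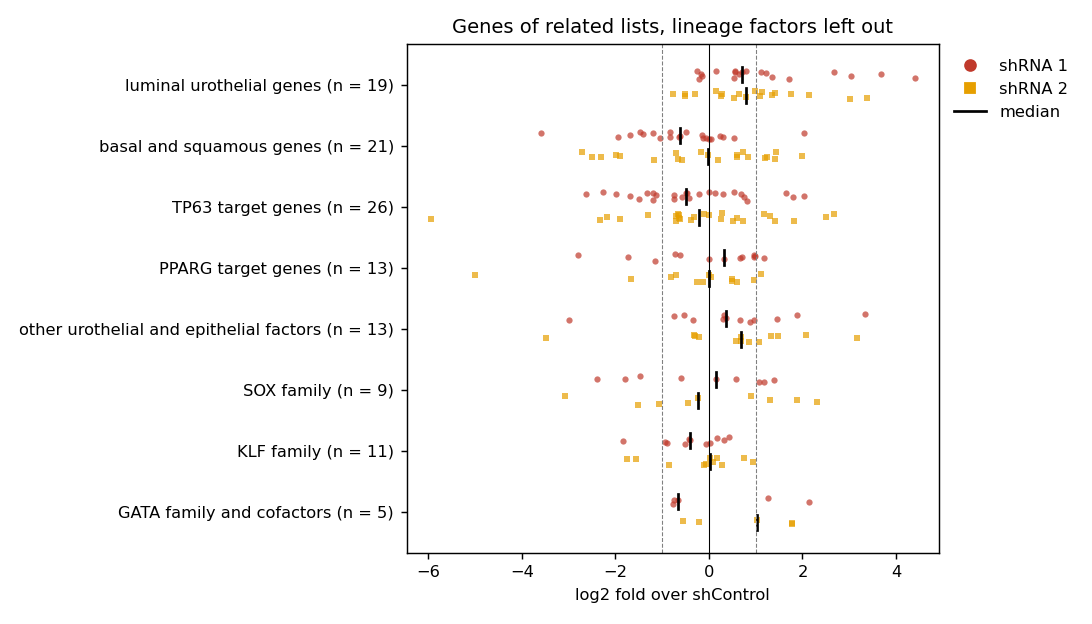
log2 fold over shControl of the tested genes of 8 lists, with the lineage factors left out; circles are shRNA 1, squares shRNA 2, 1 point per gene, black bars the medians and dashed lines 2-fold. Luminal urothelial genes have medians of 0.72 and 0.80, basal and squamous genes −0.63 and −0.02, and TP63 targets lie on both sides of 0.

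The genes whose pair of log2 folds lay nearest to those of a factor were taken from all tested protein-coding genes, by Euclidean distance over the 2 hairpin libraries. Nearest to ELF3 were HS3ST1 (distance 0.12; 2.86 and 2.68), SLC9A2 (0.13; 2.92 and 2.60) and PTPN13 (0.14; 2.93 and 2.53). Nearest to TP63 were DACT3 (0.24; −3.11 and −2.66), KCTD16 (0.24; −3.16 and −2.56) and the basal gene PKP1 (0.25; −3.59 and −2.71). Nearest to KLF5 were ICA1 (0.02; 1.1 and 1.09), LRRC8D (0.02; 1.08 and 1.09) and TRMT10A (0.03; 1.11 and 1.06). With 2 folds that share 1 control, such likeness describes position only.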

How the data were processed

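PolyA+ RNA of 3 UM-UC-3 libraries was measured. The authors deposited read counts and FPKM values per gene. FPKM in the deposited table is scaled per gene length and library by the authors. Per the submitters' processing notes, reads went through TopHat2 2.0.9 with the build hg38. Not given in the sources used here: the counting tool, strand setting, annotation, filters and the length behind FPKM.

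TGFB1, whose row was broken over 4 lines, was left out. Tests covered the 15132 genes whose mean over the libraries reached 1 CPM. Counts were scaled with TMM (edgeR 4.0.16; factors 1.02 for shRNA 1, 1.06 for shRNA 2, 0.924 for the control). log2 folds are differences of log2 CPM (prior count 2), and a call by size needs 2-fold with both hairpins. edgeR's quasi-likelihood test (1 residual degree of freedom; the single control is taken to vary as the hairpin libraries do) was adjusted over all genes. Nothing states separate cultures, so p-values speak only of the spread among these libraries, which may be technical. Ratios carry exact 95% conditional intervals, and levels exact Poisson intervals, for counting error only. DESeq2 1.42.0 and limma 3.58.1 were alternatives. All 10 factors were named. Other list genes were named if at least 2-fold away with both hairpins (at most 4 per list), otherwise the 2 highest. The members and lists were chosen with earlier results of these data known. Promoter sequences are from RefSeq (GRCh38.p14), with the 50 bases after the start left out.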

Additional observations from a re-analysis of the deposited data

How the results depend on the processing

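The count of lineage factors at least 2-fold higher with both hairpins was 2 with TMM, DESeq2 size factors, upper-quartile scaling, no filter, a mean of at least 5 CPM and a prior count of 0.5, and 3 with library totals, where GATA3 joined. It was 4 at a size of 1.5-fold in place of 2-fold, where TFAP2A and GATA3 joined. The count of lower factors was 1 in every setting except a mean of at least 5 CPM, where it was 0 because TP63 is then not tested. By edgeR and limma 0 factors passed, and with the DESeq2 test 1 did (ELF3). Leaving out shRNA 1 or shRNA 2 gave 3 higher factors in each case (with KLF4 from shRNA 2 alone and GATA3 from shRNA 1 alone), 1 lower factor in each case, and 4 luminal factors higher relative to TP63 in each case; 1 library against 1 allows no test. No alternative changed the sign of a mean log2 fold for 8 of the 9 factors, while FOXA1 (−0.15 with TMM) changed sign with shRNA 1 alone (0.13) and with library totals (0.018). Library totals put the median of all genes at 0.14 and 0.24. They gave 1030 genes higher and 553 lower by size, against 800 and 681 with TMM. KLF4 ranged from 0.58 to 1.86 with 1 hairpin left out. Depth limits TP63, SOX2 and FOXA1 most. No paired analysis was possible, because shControl has 1 library and the labels name no pairs.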
